A study of Mus musculus with 4 samples.

Results

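The mouse vomeronasal receptor genes, whose symbols in RefSeq start with Vmn1r or Vmn2r, were followed in whole-genome bisulfite data of embryonic stem cells with and without Ogt. The genome (mm10) was divided into windows of 10 kb. A window was a member when it overlapped a Vmn1r or Vmn2r gene and held at least 10 CpGs read at least once in all 4 libraries. The rule left out a stretch of 3 Mb towards the end of chromosome 4. RefSeq lists 645 such genes, namely 373 Vmn1r genes (231 protein-coding and 142 pseudogenes) and 272 Vmn2r genes (124 protein-coding, the rest pseudogenes). They overlapped 1170 windows, of which 82 held fewer than 10 usable CpGs and 42 more lay in the stretch of chromosome 4. The rule thus gave 1046 of 254137 windows. The 5 members on the Y chromosome are described apart, which leaves 1041 windows on the autosomes and X, 367 over Vmn1r genes and 675 over Vmn2r genes, 1 of them over both. These windows lay on 16 chromosomes, with 426 on chromosome 7, 187 on chromosome 17 and 138 on chromosome 6.

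Vomeronasal receptors are G protein-coupled receptors of the sensory neurons of the vomeronasal organ, which detects pheromones and other social cues. V1R receptors, encoded by Vmn1r genes, have a short extracellular start, an open reading frame in a single exon, and signal with the G protein subunit encoded by Gnai2. V2R receptors, encoded by Vmn2r genes, have a long extracellular domain built from several exons and are found in neurons that use the subunit encoded by Gnao1. Both families arose by local duplication and lie in clusters among many pseudogenes, and a neuron transcribes few of them. They are not known as genes of stem cells.

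The iKO group consisted of 2 libraries from Ogt fl/fl mouse embryonic stem cells kept with 4-hydroxytamoxifen (4-OHT) for 6 days, and the control group of 2 libraries from the same floxed cells kept without it. Ogt encodes O-GlcNAc transferase, which attaches N-acetylglucosamine to nuclear and cytosolic proteins and binds the TET enzymes that oxidise 5-methylcytosine. All cells grew on feeder fibroblasts, which were removed by sorting, but YFP sorting was applied to the treated cells alone, so drug, reporter sort and knockout cannot be told apart. The labels name 1 cell line and no separate cultures, so the spread between replicates may be technical. Bisulfite reads count 5-methylcytosine and 5-hydroxymethylcytosine together as methylated.

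The deposited tables held 64273609 to 79929994 reads over CpGs per library, a mean depth of 3.35 to 4.04 reads per listed CpG. Both iKO libraries were deeper than both controls. The starts of 5 of 6 stem cell genes with at least 5 usable CpGs, among them Pou5f1 and Nanog, were under 30% methylated in all 4 libraries, with a range of 0 to 36.2% over the 6 genes. The starts of 3 of 4 fibroblast genes were under 30% as well, so these starts do not tell the 2 cell types apart. All other windows are the 251559 of the autosomes and X over no vomeronasal receptor gene, with olfactory receptor windows among them. Across these the pooled level was 66.4% and 64.0% in iKO cells and 71.2% and 74.8% in control cells. The difference was -7.77 points with a pooled SD of 2.15.

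The promoters show how few CpGs these genes carry around the starts annotated in RefSeq. Whether transcription begins at these starts was not tested. RefSeq sequences (GRCm38.p6, the assembly behind mm10), from 250 bases before to 50 after the start, were at hand for 324 promoters of 323 vomeronasal genes. Their median number of CpGs was 1, against 7 over all 32851 promoters, and 24.1% held none, against 5.43% of all promoters and 33.3% of olfactory receptor promoters. The motif counted was CG, which reads the same on both strands. The 3 promoters of each family with the most CpGs read in all 4 libraries are printed 5′ to 3′ on the strand of the gene, with each CpG in capitals, since methylation was counted at CpGs.
Vmn1r216: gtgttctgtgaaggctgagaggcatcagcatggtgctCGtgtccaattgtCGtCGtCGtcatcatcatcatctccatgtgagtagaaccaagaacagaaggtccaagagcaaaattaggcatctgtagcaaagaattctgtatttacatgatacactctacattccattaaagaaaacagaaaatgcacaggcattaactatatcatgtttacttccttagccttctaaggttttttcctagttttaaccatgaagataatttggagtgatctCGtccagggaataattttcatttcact
Vmn1r54: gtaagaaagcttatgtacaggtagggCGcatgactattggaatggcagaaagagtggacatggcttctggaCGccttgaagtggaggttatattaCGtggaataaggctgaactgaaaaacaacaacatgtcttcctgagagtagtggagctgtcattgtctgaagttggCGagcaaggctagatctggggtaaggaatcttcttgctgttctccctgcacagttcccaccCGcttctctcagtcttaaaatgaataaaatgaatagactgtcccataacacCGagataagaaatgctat
Vmn1r212: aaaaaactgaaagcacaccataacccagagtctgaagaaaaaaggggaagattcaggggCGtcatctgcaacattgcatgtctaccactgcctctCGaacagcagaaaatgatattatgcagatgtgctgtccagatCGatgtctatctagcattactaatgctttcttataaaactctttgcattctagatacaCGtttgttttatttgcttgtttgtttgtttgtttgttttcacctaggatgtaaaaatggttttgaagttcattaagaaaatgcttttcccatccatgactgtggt
Vmn2r29: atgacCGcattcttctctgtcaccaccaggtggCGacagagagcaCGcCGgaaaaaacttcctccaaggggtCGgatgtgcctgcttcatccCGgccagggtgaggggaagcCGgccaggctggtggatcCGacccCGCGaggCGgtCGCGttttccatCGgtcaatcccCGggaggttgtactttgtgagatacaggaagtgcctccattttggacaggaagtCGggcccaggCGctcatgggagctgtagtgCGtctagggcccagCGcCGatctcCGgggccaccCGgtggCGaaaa
Vmn2r1: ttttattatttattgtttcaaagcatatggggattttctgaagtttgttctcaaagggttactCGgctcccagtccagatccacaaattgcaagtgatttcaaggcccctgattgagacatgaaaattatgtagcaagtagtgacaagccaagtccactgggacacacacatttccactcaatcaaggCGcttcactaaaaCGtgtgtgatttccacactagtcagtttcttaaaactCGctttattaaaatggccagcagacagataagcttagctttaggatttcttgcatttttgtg
Vmn2r82: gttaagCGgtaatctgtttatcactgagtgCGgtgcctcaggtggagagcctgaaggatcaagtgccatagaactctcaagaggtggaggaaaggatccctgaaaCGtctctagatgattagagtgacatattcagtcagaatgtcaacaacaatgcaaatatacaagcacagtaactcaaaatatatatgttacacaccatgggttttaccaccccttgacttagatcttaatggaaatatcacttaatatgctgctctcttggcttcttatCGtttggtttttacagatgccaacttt
These lie at chr13:23098899-23099198 (Vmn1r216, plus strand), chr6:90268856-90269155 (Vmn1r54, plus strand), chr13:22884112-22884411 (Vmn1r212, minus strand), chr7:7278240-7278539 (Vmn2r29, minus strand), chr3:64081392-64081691 (Vmn2r1, plus strand) and chr10:79356341-79356640 (Vmn2r82, plus strand). Vmn2r29 stands apart with 23 CpGs, of which 9 were read in all 4 libraries, while the other 5 printed promoters hold 4 to 6. In Vmn1r54 5 of 6 were read in all 4 libraries, and in the other 4 promoters every CpG was.

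The vomeronasal windows were highly methylated in both groups and lower in the iKO cells. Their pooled methylation level, the methylated reads over all reads of their 37670 usable CpGs, was 70.3% in iKO replicate 1 and 68.2% in iKO replicate 2. In the controls it was 73.9% in replicate 1 and 79.2% in replicate 2. Both iKO libraries thus lay below both controls, and the controls lay farther apart from each other than the iKO libraries did. The mean was 69.2% ± 1.51 for iKO and 76.5% ± 3.76 for control cells (SD, n = 2 each), which differ by -7.28 points with a pooled SD of 2.87. With 2 libraries a group the two-sided exact permutation test cannot give a p below 0.333, which is the p it gave here. The value rested on 134670 to 171369 reads per library, 3.58 to 4.55 reads per CpG. Without 1 library at a time the difference was between -9.94 and -4.62 points, the latter without control replicate 2. The drop without that library was also over 1.5 times smaller in each family (-4.31 points in Vmn1r and -4.77 in Vmn2r windows), in coding (-4.35) and pseudogene windows (-5.06), and inside (-4.75) and between genes (-4.17).

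**Figure D1:**
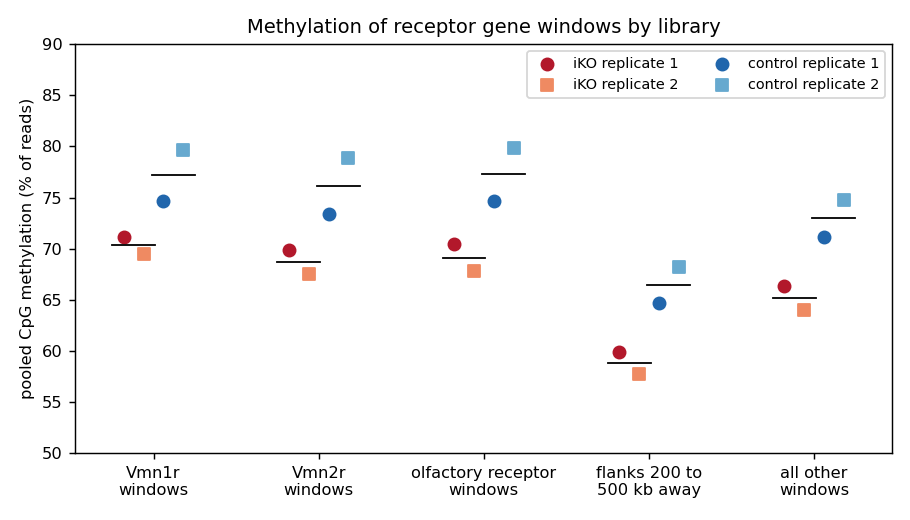
Pooled methylation level (percent of reads, axis from 50%) of each library in Vmn1r windows, Vmn2r windows, olfactory receptor windows, flanks and all other windows. Points are libraries and lines are group means of 2 libraries. In every set both iKO points lie below both control points, and flanks are the lowest set in every library.

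Set against their surroundings, vomeronasal windows carried more methylation in both groups. Flanks, the 2431 windows whose nearest vomeronasal window is 200 to 500 kb away and which lie outside every cluster, had levels of 59.9% and 57.8% in iKO cells and 64.7% and 68.2% in controls. Vomeronasal windows were above them by 10.41 and 10.42 points in the iKO libraries, 9.14 in control replicate 1 and 10.97 in control replicate 2. This gap differed between the groups by 0.360 points with a pooled SD of 0.916, and the libraries of the groups overlapped (exact permutation p = 1). Above all other windows the vomeronasal windows stood by 3.94 and 4.14 points in iKO cells and by 2.69 and 4.40 in controls. That gap differed by 0.493 points with a pooled SD of 0.864, again with overlap (exact permutation p = 1). Without control replicate 1 the differences became -0.555 and -0.365 points, so their sign rests on 1 library, and without control replicate 2 they were 1.28 and 1.35 points. With each window weighted alike they were 0.974 and 0.906 points and the groups did not overlap (exact permutation p = 0.333 for each). With each CpG weighted alike, the gap to all other windows differed by 0.647 points, also with groups apart. At least 3 reads per CpG gave 0.770 points for the flanks, and the mean over clusters of each cluster minus its own flanks gave 0.0215. Windows over protein-coding receptor genes alone gave 0.678 points against flanks and 0.811 against all other windows, both with overlap. Whether vomeronasal windows dropped less than flanks or the rest thus depends on the weighting and on single control libraries.

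Windows over olfactory receptor genes, the other large clustered family of chemosensory receptors, had like levels. Their 1508 windows stood at 70.4% and 67.8% in iKO cells and 74.7% and 79.9% in controls. Vomeronasal minus olfactory levels were -0.130 and 0.354 points in iKO cells and -0.839 and -0.713 in control cells. The groups did not overlap, the difference of 0.888 points was larger than its pooled SD of 0.250, and the exact permutation p was 0.333, the smallest possible. With at least 5 reads per CpG this difference was -5.60 points, where 9 vomeronasal windows and 1 olfactory receptor window were left. The 2 controls differed by 5.32 points in vomeronasal and 5.19 in olfactory receptor windows, against 3.60 in all other windows and 3.49 in flanks. Control replicate 2 was the higher in all 4 sets.

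Both families were lower in iKO cells. Vmn1r windows stood at 71.2% and 69.5% in iKO cells and 74.7% and 79.7% in controls, a difference of -6.82 points with a pooled SD of 2.65. Vmn2r windows stood at 69.9% and 67.5% in iKO cells and 73.4% and 78.9% in controls, a difference of -7.50 points with a pooled SD of 2.98. Vmn1r windows were the higher in every library, by 1.33 and 2.03 points in the iKO cells and by 1.22 and 0.780 in the controls. This gap was 0.680 points wider in iKO cells, with a pooled SD of 0.413 and groups that did not overlap (exact permutation p = 0.333). The gap was wider by 0.123 points when windows over pseudogenes alone were left out and by 0.422 with at least 3 reads per CpG. In both cases the groups overlapped. It was wider by 1.03 points without iKO replicate 1, 0.332 without iKO replicate 2, 0.901 without control replicate 1 and 0.459 without control replicate 2.

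In 2 clusters with at least 5 windows of each family, the change of the family gap differed in sign over all 4 libraries. It had the same sign in both clusters without control replicate 1 and without iKO replicate 2. In the cluster of chromosome 7 from 7150001 to 13250000, 51 Vmn1r windows differed by -7.79 points and 113 Vmn2r windows by -6.00, so the Vmn1r windows had the larger drop there. In the cluster of chromosome 17 from 17700001 to 21330000, 24 Vmn1r windows differed by -6.92 points and 120 Vmn2r windows by -7.22, the same order as over all windows. Without control replicate 2 the values were -5.73 and -3.75 points in the first cluster and -3.29 and -4.35 in the second, in the same order within each. In the second cluster the order turned without control replicate 1 (-10.56 and -10.09 points) and without iKO replicate 2 (-6.965 and -6.08). Over both clusters the Vmn1r minus Vmn2r gap differed by -0.745 points with overlapping groups (exact permutation p = 0.667), a comparison added after the values were seen. The difference was -0.221 points without iKO replicate 1 and -1.27 without iKO replicate 2.

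Windows over pseudogenes alone and windows over a protein-coding receptor gene were both lower in iKO cells. The 656 windows with a protein-coding gene differed by -6.96 points and the 385 with pseudogenes alone by -7.79. The level of pseudogene windows minus that of coding ones was -1.23 and -1.38 points in iKO cells and -0.615 and -0.350 in controls. The gap differed by -0.825 points with a pooled SD of 0.152 and did not overlap between groups (exact permutation p = 0.333). By family, Vmn2r pseudogene windows differed by -8.22 points and coding ones by -7.00, and the values in Vmn1r windows were -6.71 and -6.88. Within vomeronasal windows, 18011 CpGs inside annotated genes differed by -7.39 points and 18195 CpGs between genes by -6.84. The inside minus between gap differed by -0.548 points, with a pooled SD of 0.315 and groups that did not overlap (exact permutation p = 0.333).

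The 1041 windows fell into 45 clusters when neighbours at most 1 Mb apart were joined. Of these, 22 clusters held at least 5 windows and together 999 windows, and the other 23 groups held 42 windows that differed by -7.91 points when pooled. All 22 clusters were lower in both iKO libraries than in both controls. Their differences ran from -14.2 to -5.05 points with a median of -7.34. Without control replicate 2 they ran from -11.3 to -2.55 points, and 12 of the 22 were over 1.5 times smaller. So were 2 without iKO replicate 2, and 1 was over 1.5 times larger without control replicate 1. Joined at 300 kb, the windows gave 54 clusters, 28 of them with at least 5 windows.

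**Figure D2:**
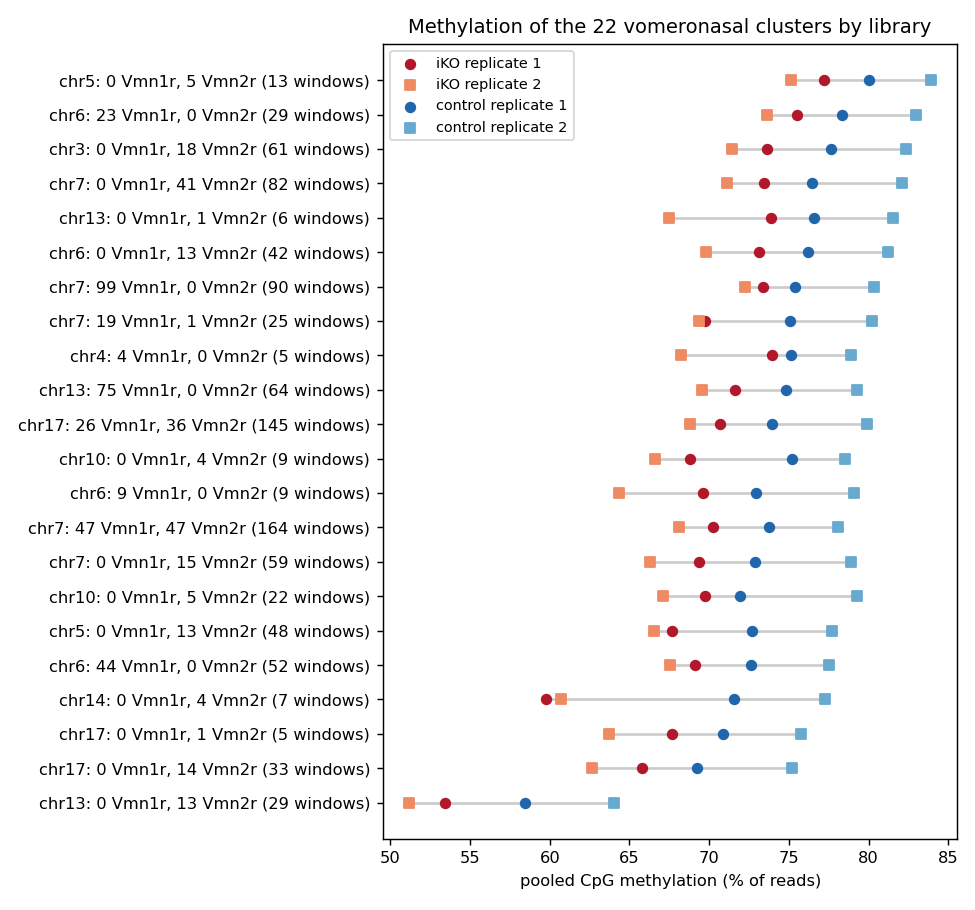
Methylation level (percent) of each library in the 22 vomeronasal clusters of at least 5 windows, labelled by chromosome, number of genes of each family and number of windows. Points are libraries, grey lines span them, and every cluster has both iKO libraries below both controls.

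Both clusters with the most windows differed by amounts near the median. The cluster of chromosome 7 from 7150001 to 13250000, with 47 Vmn1r and 47 Vmn2r genes in 164 windows, averaged 69.2% ± 1.55 in iKO and 75.9% ± 3.08 in control cells (SD, n = 2 each) and so differed by -6.74 points. The cluster of chromosome 17 from 17700001 to 21330000, with 26 Vmn1r and 36 Vmn2r genes, differed by -7.18 points, or -4.19 without control replicate 2. Among the clusters of Vmn1r genes alone, the one on chromosome 13 from 22050001 to 23270000 (75 genes) differed by -6.44 points (-4.21 when that control is left out), and the one on chromosome 6 from 56920001 to 58510000 (44 genes) by -6.72 (-4.27). Among those of Vmn2r genes alone, the one on chromosome 7 from 84810001 to 87040000 (41 genes) differed by -7.00 points, or -4.17 with that control left out. The cluster of chromosome 3 from 64050001 to 64900000 holds Vmn2r1 to Vmn2r7, whose products are co-receptors made together with another V2R in the same neuron. It stood at 73.6% and 71.4% in iKO cells and 77.6% and 82.4% in controls, a difference of -7.47 points.

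The smallest drop was in the large Vmn1r cluster of chromosome 7 from 20100001 to 24060000, which spans Vmn1r91 to Vmn1r183 and holds 99 Vmn1r genes, 86 of them coding, in 90 windows. Its levels were 73.4% and 72.3% in iKO cells and 75.4% and 80.4% in controls. The difference was -5.05 points with a pooled SD of 2.56, while its own flanks differed by -9.14. The cluster minus flank gap differed by 4.10 points with a pooled SD of 1.02, and the groups did not overlap. In this cluster 54.0% of listed CpGs were read in all 4 libraries, the lowest share of the 22 clusters, against 77.4% over all vomeronasal windows. With at least 3 reads per CpG in all libraries the difference was -6.62 points. The drop was then no longer the smallest, with -5.655 points in the cluster of chromosome 5 from 151430001. Over all vomeronasal windows, the 95 in which under 50% of listed CpGs were read in all libraries differed by -5.62 points, the 274 at 50 to 80% by -6.97 and the 672 at 80% or more by -7.48. Of the 95 windows 44 lie in this cluster. The windows elsewhere, 51, 249 and 651 in these classes, differed by -5.57, -7.30 and -7.51 points. The part of this coverage in the cluster's value was not tested. Leaving out 1 library moved the cluster's difference to between -7.55 points (without control replicate 1) and -2.55 (without control replicate 2). Without iKO replicate 2 it was -4.49 points, and the cluster of chromosome 4 from 3100001 dropped less (-3.12).

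**Figure D3:**
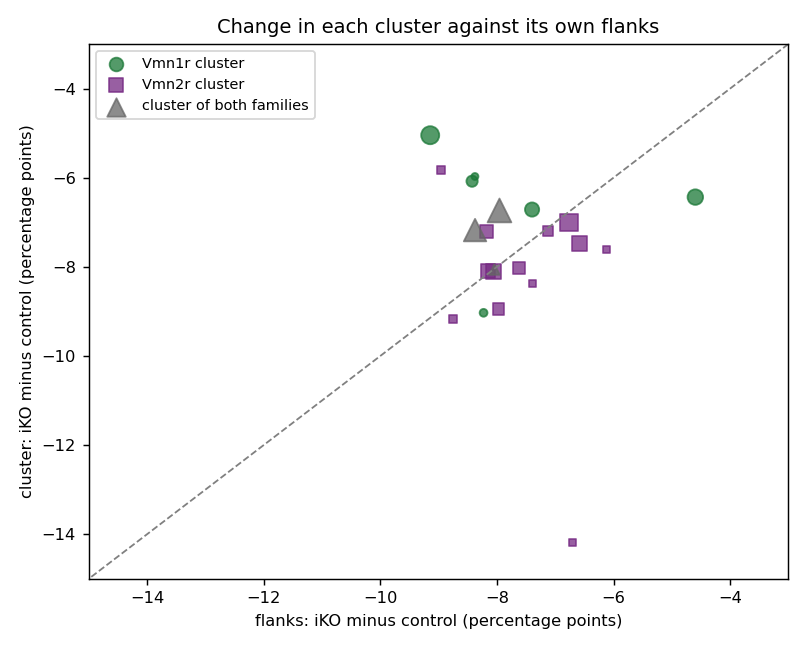
Difference iKO minus control (percentage points) of the 22 clusters (vertical axis) against that of their own flanks (horizontal axis). Each point is a cluster, sized by its number of windows and shaped by family, and the dashed line marks equal differences. The chromosome 7 cluster of 99 Vmn1r genes differed by -5.05 against -9.14 in its flanks, and the chromosome 14 cluster by -14.2 against -6.70.

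The largest drop was in a small Vmn2r cluster of chromosome 14 from 51370001 to 51470000, which holds Vmn2r-ps110, Vmn2r88, Vmn2r-ps111 and Vmn2r89. Its 7 windows with 399 CpGs stood at 59.8% and 60.7% in iKO cells and at 71.6% and 77.3% in controls. The difference was -14.2 points with a pooled SD of 2.89, and its flanks differed by -6.70. The gap to the flanks differed by -7.48 points with a pooled SD of 1.55. The drop was uneven along the cluster. The windows at 51380001 (Vmn2r-ps110) and 51430001 (Vmn2r-ps111), with 112 and 103 CpGs the richest of the 7, differed by -20.7 and -19.5 points. The other windows of these pseudogenes differed by -14.9 (Vmn2r-ps110, 51370001) and -7.87 points (Vmn2r-ps111, 51420001). Those over the coding genes differed by -5.96 (Vmn2r88), -11.5 and -8.55 points (both Vmn2r89). With at least 3 reads per CpG the cluster differed by -11.6 points, and without 1 library at a time by -17.0 to -11.3.

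Over the 22 clusters the drop was smaller than that of the flanks in 9, with libraries of the groups apart in 5, and larger in 13, also with 5 apart. The lowest levels were in a cluster of 13 Vmn2r pseudogenes on chromosome 13 from 65350001 to 66880000. Its 29 windows stood at 53.5% and 51.2% in iKO cells and 58.5% and 64.0% in controls, a difference of -8.95 points. Without this cluster and that of chromosome 14, left out after the values were seen, all vomeronasal windows differed by -7.15 points and Vmn2r windows by -7.33. The gap between the families then differed by 0.508 points between the groups, which overlapped (exact permutation p = 0.667).

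Single windows were tested by a quasi-binomial model over all 252642 windows of the autosomes and X. A call needed an adjusted p under 0.05 (Benjamini-Hochberg, dispersion moderated with limma) and a difference of at least 10 points. Of the 1041 vomeronasal windows 71 were called lower, 24 of the 367 over Vmn1r genes and 47 of the 675 over Vmn2r genes. That is 6.82% of vomeronasal windows, against 17.3% of all windows tested and 9.48% of olfactory receptor windows. With the 10 points counted from the median difference of all windows, at the same adjusted p, 16 vomeronasal windows were called lower. The order then turned, but the shares were near each other, with 1.54% of vomeronasal windows, 1.17% of all and 1.46% of olfactory receptor windows. The called windows differed by -24.5 to -10.43 points with a median of -14.7. That 70 of the 71 had both iKO libraries under both controls follows largely from the call, made in the same libraries. In this model 0 vomeronasal windows were called higher, where 0.000792% of all windows were. At an unadjusted p under 0.05, 205 vomeronasal windows (19.7%) were lower, against 40.1% of all windows. edgeR's quasi-likelihood test called 65 (6.24%) lower, against 14.1% of all windows, and 0 higher, against 0.00198% of all.

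The call depended on single libraries. Each bracket gives the share called among all windows tested, beside the count of vomeronasal windows. Without control replicate 1 the count was 150 (29.2% of all windows), and without control replicate 2 it was 9 (3.97% of all). Without iKO replicate 1 it was 22 (9.09% of all), and without iKO replicate 2 it was 5 (1.44% of all). With at least 3 reads per CpG, 19 of 613 vomeronasal windows were called lower, against 7.45% of all windows. limma on logit levels called 0 vomeronasal windows and 0 of all windows. At an unadjusted p under 0.05 it had 276 vomeronasal windows (26.5%) lower, against 33.4% of all.

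Most vomeronasal windows, called or not, pointed the same way. The difference was below 0 in 964 of the 1041 windows (92.6%), against 96.4% of all windows tested. Its median was -6.91 points, -6.50 over Vmn1r and -7.16 over Vmn2r genes, against -7.79 over all windows and -8.00 over olfactory receptor genes. Both iKO libraries lay below both controls in 607 vomeronasal windows, or 58.3%, against 71.6% of all windows. Both lay above both controls in 16 vomeronasal windows, or 1.54%, against 0.522% of all windows.

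**Figure D4:**
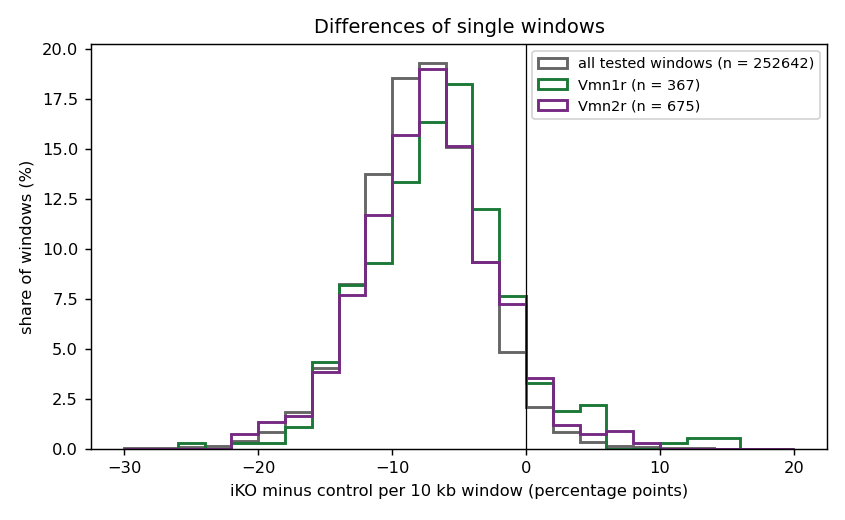
Distribution of the difference iKO minus control (percentage points) over Vmn1r windows, Vmn2r windows and all tested windows, as the share of windows (percent) in steps of 2 points. The medians are -6.50, -7.16 and -7.79 points.

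Vomeronasal windows hold few CpGs, and the called share followed that number. Their median was 33 usable CpGs, against 57 in all other windows. Among windows of 10 to 19 CpGs, 0 of 92 vomeronasal windows and 0.778% of other windows were called lower. With 20 to 29 CpGs it was 6 of 296 (2.03%, others 2.86%), and with 30 to 39 CpGs 11 of 326 (3.37%, others 5.37%). With 40 to 59 CpGs it was 32 of 249 (12.9%, others 11.9%), and with 60 or more 22 of 78 (28.2%, others 27.8%). At a like number of CpGs the called shares were thus close from 40 CpGs on. The median difference of vomeronasal windows was -5.22, -6.49, -7.18, -7.15 and -7.73 points in these 5 classes, against -7.38, -7.55, -7.56, -7.52 and -8.04 in the others.

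**Figure D5:**
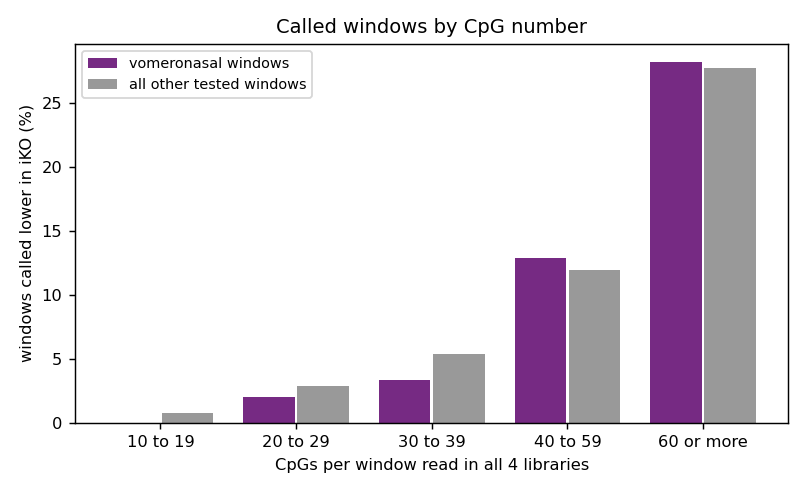
Share of windows called lower (percent) in 5 classes of usable CpGs per window, for vomeronasal windows and all other windows. Both shares rise with the number of CpGs, to 28.2% and 27.8% in windows of 60 or more.

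The named windows are, in each family, the 4 lowest and the 4 highest differences among windows with at least 30 CpGs and 60 reads in every library. That was met by 220 Vmn1r and 433 Vmn2r windows. Since these are the extremes of a ranking, their size is a description. Each value is uncertain by counting alone, with 95% Wilson half-widths of 4.65 to 9.69 points per library, and intervals cover counting error only, since reads carry no molecular identifiers. Many receptor genes have near copies, so reads may have been placed on the wrong copy.

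Among Vmn1r windows, the one over Vmn1r210 on chromosome 13 from 22820001 to 22830000 was lowest of those that meet these minimums, at 51.5% and 46.3% in iKO cells and 70.5% and 69.2% in controls. Its difference of -21.0 points was called (adjusted p = 0.000576 in the quasi-binomial model with limma). The window over Vmn1r70 (chromosome 7 from 10630001) was at 65.3% and 53.1% against 73.5% and 80.2%. Its difference of -17.6 points missed the threshold, with an adjusted p of 0.0514 in the quasi-binomial model, and edgeR called it. The window over the pseudogene Vmn1r-ps93 (chromosome 13 from 22070001) stood at 67.1% and 60.6% in iKO cells and 79.5% and 82.0% in controls. Its difference of -16.9 points was called (quasi-binomial model, adjusted p = 0.00443). The window over Vmn1r72 (chromosome 7 from 11670001) stood at 54.2% and 59.3% against 66.5% and 79.0%. It was called at -16 points (quasi-binomial model, adjusted p = 0.0335). The call was lost without control replicate 2, without either iKO library and with at least 3 reads per CpG. In all 4 windows the groups did not overlap. The calls of Vmn1r210 and Vmn1r-ps93 were lost without iKO replicate 2, and that of Vmn1r-ps93 also without control replicate 2.

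The highest Vmn1r windows by the same minimums lay on chromosomes 7 and 6, and none of the 4 was called. Over all Vmn1r windows the range was wider, from -24.5 points over Vmn1r101 (24 CpGs, called) to 14.9 over Vmn1r18 (22 CpGs, not called). Both ends rest on single libraries. The Vmn1r101 window stood at 27.9% and 46.8% in iKO cells and 44.0% and 79.7% in controls, so its groups overlapped, and without control replicate 2 it differed by -6.63 points. The Vmn1r18 window differed by 5.65 points without control replicate 1. Vmn1r125 (chromosome 7 from 21270001) stood at 81.0% and 87.5% in iKO cells and 79.7% and 79.1% in controls, a difference of 4.87 points and the only 1 of the 4 with groups apart. Vmn1r129 (chromosome 7 from 21360001) differed by 4.14 points, with 78.5% and 74.5% against 68.5% and 76.2%. Both lie in the chromosome 7 cluster of 99 Vmn1r genes, as does Vmn1r180 (23950001), which differed by 2.76 points. Vmn1r24 (chromosome 6 from 57950001) differed by 2.89 points. Without control replicate 1, which was low in both, Vmn1r180 differed by -3.96 and Vmn1r24 by -2.54 points. Vmn1r129 differed by 0.313 points without the same library, and Vmn1r125 by 1.62 without iKO replicate 2.

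Among Vmn2r windows, the one over Vmn2r13 (chromosome 5 from 109160001) stood at 51.8% and 44.9% in iKO cells and 68.3% and 70.6% in controls. Its difference of -21.1 points was called (quasi-binomial model, adjusted p = 0.0113), but with at least 3 reads per CpG it was -6.88 and not called. The call was also lost when replicate 2 of either group was left out. The window over the pseudogene Vmn2r-ps110 (chromosome 14 from 51380001 to 51390000) stood at 46.2% and 50.7% against 65.0% and 73.2%. Its difference of -20.7 points was called (quasi-binomial model, adjusted p = 5.61e-05). This call held without each of the 4 libraries in turn. It was lost with at least 3 reads per CpG, where the difference was -17.0 points.

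The window from 64200001 on chromosome 3 lies within the annotated span of Vmn2r1, a co-receptor gene. It stood at 49.2% and 59.03% in iKO cells and 77.4% and 71.9% in controls, a difference of -20.6 points (quasi-binomial model, adjusted p = 0.00174). The call was lost without iKO replicate 1. The window over Vmn2r-ps23 (chromosome 5 from 109640001) stood at 43.8% and 43.3% against 59.5% and 68.0%, a difference of -20.2 points (quasi-binomial model, adjusted p = 0.00226). Its call was lost without iKO replicate 2 and without control replicate 2. In all 4 of these Vmn2r windows the groups did not overlap.

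Among the windows that meet these minimums, the 4 highest of Vmn2r genes were over pseudogenes. Over all Vmn2r windows the highest difference was 9.01 points, over the coding gene Vmn2r35 (20 CpGs), and it was not called. Vmn2r-ps98 (chromosome 13 from 65720001 to 65730000) stood at 36.4% and 32.2% in iKO cells and 30.5% and 23.7% in controls. Its difference of 7.21 points was not called (quasi-binomial model, adjusted p = 0.229), although both iKO libraries lay above both controls. The annotated span of this pseudogene overlaps 9 windows, and the other 8 had differences below 0. Of these, 4 were called lower, by -19.9 to -16.6 points, among them the one from 65740001 with 81 CpGs (quasi-binomial model, adjusted p = 2.60e-05). Vmn2r-ps103 in the same cluster (66240001) differed by 4.00 points, with 37.6% and 38.8% against 30.4% and 38.1%. Vmn2r-ps41 (chromosome 7 from 9180001) differed by 4.03 and Vmn2r-ps25 (chromosome 5 from 151460001) by 2.97 points, and neither was called. Without control replicate 1, Vmn2r-ps41 differed by -0.690 and Vmn2r-ps103 by 0.135 points. Without control replicate 2, Vmn2r-ps98 differed by 3.83 and Vmn2r-ps25 by 1.11 points.

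Weakly methylated windows were rare. The mean control level of vomeronasal windows ran from 27.1% to 92.4% with a median of 77.0%. It was under 50% in 10 of the 1041 windows (0.961%), against 4.68% of all windows, and under 20% in 0, against 0.285% of all. Of these 10 windows, 6 lay in the chromosome 13 cluster of Vmn2r pseudogenes, over Vmn2r-ps95, Vmn2r-ps98, Vmn2r-ps102, Vmn2r-ps103, Vmn2r-ps108 and Vmn2r-ps109. The other 4 lay over Vmn2r3, Vmn2r-ps23, Vmn1r4 and Vmn1r-ps92, and in each of them the iKO libraries were both lower than the controls. The last 2 lie at the edge of their clusters, and Vmn1r4 (chromosome 6 from 56920001, 117 CpGs) stood at 31.3% and 35.3% in iKO cells and 35.4% in each control. Among the 6 windows of the chromosome 13 cluster, the groups overlapped in all but the 1 over Vmn2r-ps98, which was higher in iKO cells while 4 other windows over that pseudogene were called lower.

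At annotated starts the drop was like that of the whole windows. Over 332 CpGs in vomeronasal promoters the pooled level was 65.5% and 63.7% in iKO cells and 70.0% and 74.0% in controls. The difference was -7.42 points with a pooled SD of 2.22 (exact permutation p = 0.333), from 1205 to 1518 reads per library. Vmn1r promoters (204 CpGs) differed by -7.88 points and Vmn2r promoters (128 CpGs) by -6.65. At least 1 usable CpG was found in 187 promoters and at least 3 in 40. Of these 40, 13 were lower in both iKO libraries than in both controls, against 15.3% of the 21277 promoters of all genes with at least 3 usable CpGs. The sets are unlike, with a median difference of -5.73 points in the 40 and 0 in the promoters of all genes. Control means of the 40 ran from 29.1% to 96.7% with a median of 73.1%, and 0 were under 20%.

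The printed promoters show how wide the error of a single one is, with 10 to 32 reads per library and 95% Wilson half-widths of 7.43 to 22.5 points. Vmn2r29, the CpG-rich one, had the lowest control level, with 28.6% and 29.6% in controls and 0% and 44.4% in iKO cells. Its 0% is 0 of 22 reads, and 3 reads, the limit used for a count of 0, would be 13.6%. Vmn1r212 stood at 54.6% and 72.2% in iKO cells and 80% and 93.8% in controls, and Vmn2r82 at 63.2% and 85.7% against 90.9% and 88.2%. In these 2 the iKO libraries were both under the controls. In Vmn1r216 (90.5% and 63.0% against 75% and 69.2%), Vmn1r54 (90% and 48.0% against 78.6% and 71.4%) and Vmn2r1 (78.3% and 64.7% against 68.4% and 52.9%) the groups overlapped. Single promoters were not tested.

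Over whole genes with at least 10 usable CpGs, 13 of 21 Vmn1r genes and 125 of 183 Vmn2r genes were lower in both iKO libraries than in both controls, and 0 were higher in both. These are 61.9% and 68.3% of them, against 73.8% of all genes lower and 1.26% higher in both. Their median differences were -7.46 and -7.21 points, against -7.78 over all 36695 genes. Few of the short Vmn1r genes hold that many. Some receptors were picked outside the naming rule for their known roles, and their values were seen first. Vmn2r116, the receptor of the male pheromone ESP1, stood at 63.0% and 56.7% in iKO cells and 68.8% and 71.8% in controls, a difference of -10.41 points with a pooled SD of 3.50. Vmn2r26, whose receptor responds to peptides, differed by -7.21 points with a pooled SD of 2.79, or -4.48 without control replicate 2. The annotated span of the co-receptor gene Vmn2r2 lies within that of Vmn2r1, so these genes share CpGs and are not separate observations. Of the 7 co-receptor genes Vmn2r1 to Vmn2r7, 5 were lower in both iKO libraries and 2 had overlapping groups (Vmn2r3 and Vmn2r6). Their differences ran from -10.01 points in Vmn2r3 to -4.96 in Vmn2r6. Both values rest on control replicate 2, without which Vmn2r3 differed by -0.437 and Vmn2r6 by -0.652 points. The other 6 genes picked in this way were Vmn1r85, Vmn1r89, Vmn2r53, Vmn2r65, Vmn2r88 and Vmn2r89. Of these, Vmn1r85 (9 usable CpGs) and Vmn1r89 (8) lie under the minimum of 10. The 6 differences ran from -25.2 points in Vmn1r85, with 21 to 54 reads per library, to -2.74 points in Vmn2r65, with 390 to 436 reads. Vmn1r85 stood at 48.4% and 68.5% in iKO cells and 81.6% and 85.7% in controls. Without iKO replicate 1, Vmn1r85 differed by -15.2 and Vmn2r65 by -1.44 points.

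Other genes linked to vomeronasal neurons, taken from fixed lists, were set beside the receptors. Of 11 signalling genes, 11 were lower in both iKO libraries, where 73.8% of all genes were, with a median of -8.86 points. Of their 97 windows 16 (16.5%) were called lower, near the 17.3% of all windows. Trpc2, the cation channel that carries the pheromone response, differed by -9.48 points with a pooled SD of 4.05, from a control mean of 65.0%, and by -5.76 points without iKO replicate 2. Gnai2 and Gnao1, the G protein subunits of V1R and V2R neurons, had control means of 44.4% and 76.0% and iKO means of 35.1% and 69.6%. Omp, a protein of mature olfactory and vomeronasal neurons, differed by -10.6 points with a pooled SD of 2.95.

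The next list held 16 genes for formyl peptide receptors and H2-M proteins, families of which some members are made in vomeronasal neurons. Of these genes 10 had at least 10 usable CpGs, with Fpr1 and Fpr2 the only formyl peptide receptors among them. Of the 10, 7 were lower in both iKO libraries, where 73.8% of all genes were. H2-M1 had the largest difference of the list, -23.1 points with a pooled SD of 3.42 over 16 CpGs. Of their 21 windows 3 (14.3%) were called lower, against 17.3% of all windows. The 13 regulators of vomeronasal neuron fate had a median of -1.42 points, against -7.78 over all genes. Of these genes 4 were lower and 2 higher in both iKO libraries, where 73.8% and 1.26% of all genes were, with control means from 9.98% to 74.7%. Of their 109 windows 19 (17.4%) were called lower, near the share of all windows.

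The windows kept aside were read in the same way. The 5 windows over Vmn2r pseudogenes on the Y chromosome, with 172 CpGs, stood at 76.2% and 73.3% in iKO cells and 76.6% and 77.5% in controls, a difference of -2.28 points with a pooled SD of 1.53, which was -0.825 without iKO replicate 2 and -3.74 without iKO replicate 1. The 42 windows on chromosome 4 that the rule left out differed by -8.28 points, and 19.7% of their CpGs were read at over 5 times the median depth, against 0.0956% in vomeronasal windows.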

How the data were processed

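Whole-genome bisulfite libraries of 2 Ogt iKO and 2 control samples were used. Per the submitters' processing notes, the authors used BSMAP, Picard and the build mm10, with no version given. Per the file headers, the deposited values are, at each CpG, counts of methylated reads and of all reads with C or T, and an expected count in which the latter is corrected for C/T variants. Both strands were already merged. Each table was matched to its sample by genotype and replicate number in its name.

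CpGs with at least 1 read in all 4 libraries were joined (PyArrow 21.0.0, pandas 2.3.3, NumPy 2.4.6, Python 3.11.15), and reads were pooled per set and library. Library levels were compared by two-sided exact permutation over the 6 arrangements of the labels (SciPy 1.17.1). Windows with at least 10 CpGs were fitted with a quasi-binomial logistic model in R 4.3.3, with the Pearson dispersion moderated by limma 3.58.1 and kept at 1 or more, an F test and Benjamini-Hochberg adjustment over 252642 windows. limma gave all windows the same dispersion, so a window whose replicates differ strongly can be called. The other tests were edgeR 4.0.16 and limma on logits, for which 0.5 was added to methylated and unmethylated reads. The model was also run on simulated data with less spread between libraries than here (median dispersion of 1.01 against 1.61). That run therefore cannot tell how reliable the calls are at the spread of these data. Very deep CpGs are those over 5 times the median depth of all CpGs in any library. Gene positions and promoters came from RefSeq (GRCm38.p6), which gives no exons here. Figures were drawn with matplotlib 3.10.9.

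The members, gene lists and tests were chosen with earlier results of these data known. Named windows are the 4 lowest and 4 highest differences per family among windows with at least 30 CpGs and 60 reads in every library. Named promoters are the 3 per family with the most usable CpGs outside chromosome 18. Replicates with the same number did not deviate together (correlation of -0.0175 over all windows and 0.0161 over vomeronasal windows), so the number was not used to pair them.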

Additional observations from a re-analysis of the deposited data

How the results depend on the processing

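The count of 71 vomeronasal windows called lower was 19 with at least 3 reads per CpG in all 4 libraries. With at least 5 reads it was 0 of 9 tested, against 3.78% of all windows. It was 21 (2.02%) with the replicate block, against 8.24% of all windows, and 0 with limma on logit levels. With the 10 points counted from the median difference of all windows, at the same adjusted p, it was 16. That is 1.54% of vomeronasal windows against 1.17% of all. There the vomeronasal share is slightly the higher, unlike in the count of 71 (6.82% against 17.3%). Without 1 library at a time it was between 5 and 150. It stayed within 1.5 times under the remaining alternatives, with 63 after thinning to the shallowest library. Of 138 alternative values of the 9 differences of levels and gaps, 133 kept their direction and 5 turned. Not all could turn, since the replicate block gives the main value again. Leaving out 1 library also cannot turn a difference whose groups are apart. Given here is the iKO minus control difference in each gap. For the gap of vomeronasal to all other windows it was -3.69 points with at least 5 reads and -0.365 without control replicate 1. For the gap to olfactory receptor windows it was -5.60 with at least 5 reads (1 olfactory receptor window left), and for the gap to flanks -0.555 without control replicate 1. For the Vmn1r minus Vmn2r gap it was -0.745 within clusters holding both families, an alternative chosen after seeing the data. The cause was not tested. At 5 reads the gap to flanks gave no value.

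Without 1 library at a time, the difference ranged from -9.94 to -4.62 points in vomeronasal, from -9.33 to -4.31 in Vmn1r and from -10.2 to -4.77 in Vmn2r windows, and from -9.45 to -5.40 in promoters. The iKO minus control differences in the gaps ranged from 0.332 to 1.03 (Vmn1r minus Vmn2r), -0.555 to 1.28 (flanks), -0.365 to 1.35 (all other windows), 0.646 to 1.13 (olfactory receptors) and -0.861 to -0.234 (inside minus between genes). All 181 alternative values of the 22 clusters kept their direction. Those without 1 library could not turn, since both iKO libraries lay below both controls in every cluster. Of 187 alternative values of the 16 named windows, 5 turned, 22 lost their call and 2 gained one. Those that turned were Vmn1r24 (-0.508 with at least 3 reads, -2.54 without control replicate 1), Vmn1r180 (-0.984 without iKO replicate 1, -3.96 without control replicate 1) and Vmn2r-ps41 (-0.690 without control replicate 1), whose values without 1 library at a time ranged up to 8.32, 9.47 and 8.75 points.

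The replicate block, in which samples share, by the labels, only a number, moved the vomeronasal count to 21. It lost the call of Vmn1r72 (quasi-binomial model, adjusted p = 0.0844). With 2 libraries a group the paired mean difference equals the unpaired one, so it could change no direction. Over all vomeronasal windows it was -7.28 points. Depth, at under 5 reads per CpG, limits single windows and promoters. A fit that leaves a group with 1 library takes its spread from the other group.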
